A study of Mus musculus with 6 samples.

Results

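Complement and coagulation are protein cascades in which one protease cleaves and activates the next. The genes described here are 42 members of both cascades and of the fibrin-dissolving system, chosen by symbol with the serpin inhibitors left out. All 42 were represented on the array, by 54 probes whose RefSeq transcript maps to a member, out of 20883 genes that could be named, and 34 of the 42 were tested among 15678 genes. The RNA came from sorted mouse mammary cells on 6 Agilent arrays, 3 from Lgr5-positive and 3 from Lgr5-negative cells. Lgr5-positive cells were sorted as Lin-CD24+CD29hi and GFP+, and Lgr5-negative cells as Lin-CD24+CD29hi and GFP-; this sort region, P4, is known to hold basal mammary cells. The mice of both groups were virgin, of strain C57/B6, and carried lgr5-egfp-ires-creert2, an allele in which the Lgr5 locus drives EGFP and an inducible Cre. The labels give neither the age of the mice nor how many were pooled, and they do not say that replicates came from separate animals, so p-values measure the spread between these arrays, which may be partly technical. Each array set the sample, in Cy5, against a universal mouse reference RNA from 11 cell lines, in Cy3, and a value below is the log2 ratio of sample to reference, compared between arrays of the same probe and never between genes.

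In complement, C1q bound to antibody activates C1r and C1s, which cleave C4 and C2 into an enzyme that splits C3; mannose-binding lectin starts the same steps through MASP proteases. Factors B and D and properdin build the alternative pathway's enzyme, which amplifies C3 cleavage, and C6 and C7 take part in the membrane pore. Host cells protect themselves with membrane regulators such as CD55 and CD59. In coagulation, tissue factor with factor VII starts the formation of thrombin, which turns fibrinogen into fibrin, while thrombomodulin, protein C, protein S and tissue factor pathway inhibitor restrain it and plasmin dissolves the clot. Many of these proteins circulate after being made in the liver, but endothelium, macrophages, fibroblasts and epithelium make some of them locally.

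Median Cy5 signal was 137 to 169 on Lgr5-positive arrays and 200 to 278 on Lgr5-negative arrays, against a median background of 64 to 76, and 50.9% to 74.4% of probes were well above background. Lgr5 itself was at 4.87 in Lgr5-positive and 3.40 in Lgr5-negative cells, a difference of 1.47 (SE 0.40, adjusted p = 0.245 with limma and the group alone, and 0.0021 with the replicate number as a block). The markers of basal cells Krt5, Krt14, Trp63 and Acta2 were well above background on every array, and the 7 basal markers averaged 2.18 to 2.63 on Lgr5-positive and 2.00 to 2.30 on Lgr5-negative arrays. Arrays that share a replicate number deviated together, so each difference is given with the group alone and, where it changes the call, with the block as well.

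With the block members of both cascades fell, while those that fell with the group alone were all complement genes. In that fit 4 of the 34 tested members changed, the 4 being Cd55, Cfb, Clu and C2, all lower in Lgr5-positive cells (11.8%, where 0.612% of all genes tested passed, 0.587% as lower and 0.0255% as higher). With the block 15 changed, 13 lower and 2 higher (44.1%, where 7.73% of all genes passed, 5.61% as lower and 2.12% as higher). Of the 13, F3, F8, Vwf, Fgb, F2r, Thbd and Tfpi act in clotting, and the others are complement genes. The members also spread more widely than other genes: the median absolute log2 fold change was 0.64 among tested members and 0.16 over all genes, and 13 members (38.2%) were at least 2-fold lower and 2 (5.88%) at least 2-fold higher, against 4% and 0.357% of all genes. Their median log2 fold change, -0.11, lay near the 0.01 of all genes, since 20 members were below 0 (58.8%, where 48% of all genes were) and 14 above it. The groups did not overlap in 13 members, 12 lower and 1 higher (38.2%, where 12.2% of all genes did not overlap, 8.14% lower and 4.06% higher). An unadjusted p under 0.05 with the group alone was found for 14 members, where 8.2% of all genes had one. All 3 pairs had one sign in 20 members, 15 lower and 5 higher (58.8%, where 44.3% of all genes had one sign, 21.8% lower and 22.5% higher). F8 entered these counts only through its Lgr5-negative arrays and so could only be found lower. Members were chosen with earlier results of these data known, so these shares and medians are description and do not test the members against all genes.

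**Figure D1:**
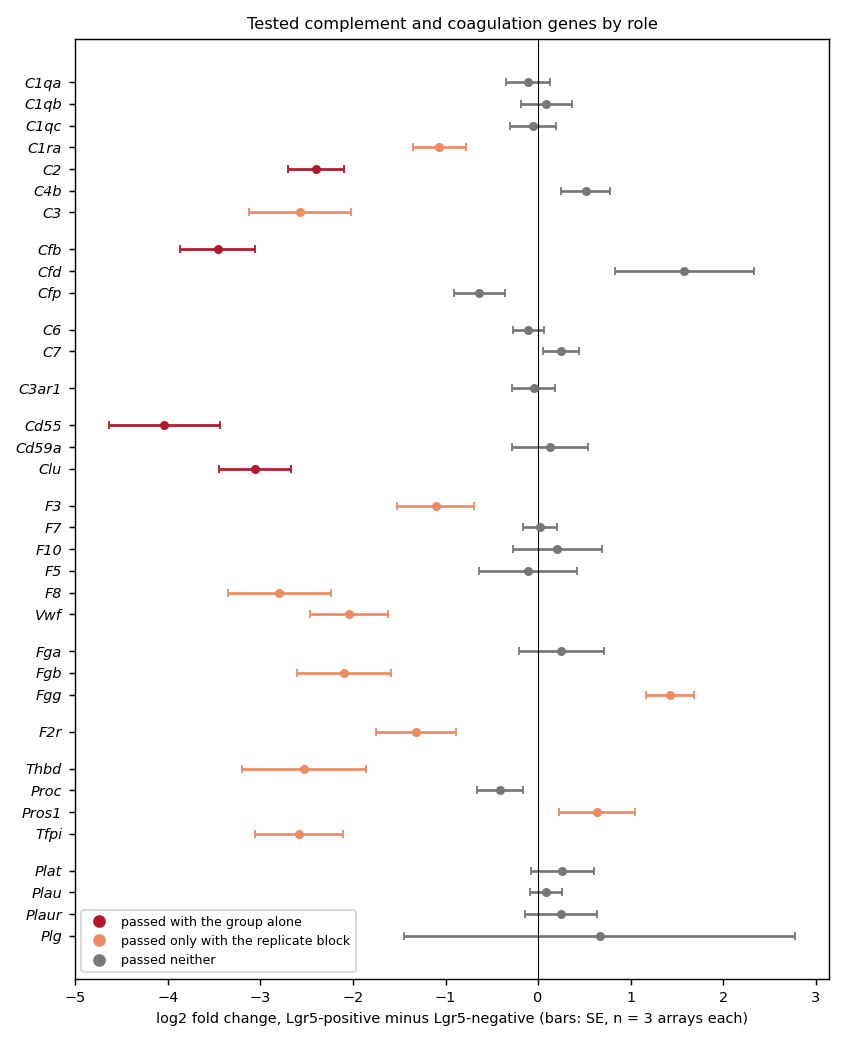
Each point is the log2 fold change of a tested member, Lgr5-positive minus Lgr5-negative, with its SE from the fit with the group alone (n = 3 arrays each), ordered by role from complement at the top to fibrinolysis at the bottom. The 4 members that passed with the group alone lie between -4.04 (Cd55) and -2.40 (C2), and Fgg and Pros1 are the members that rose with the block.

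**Figure D2:**
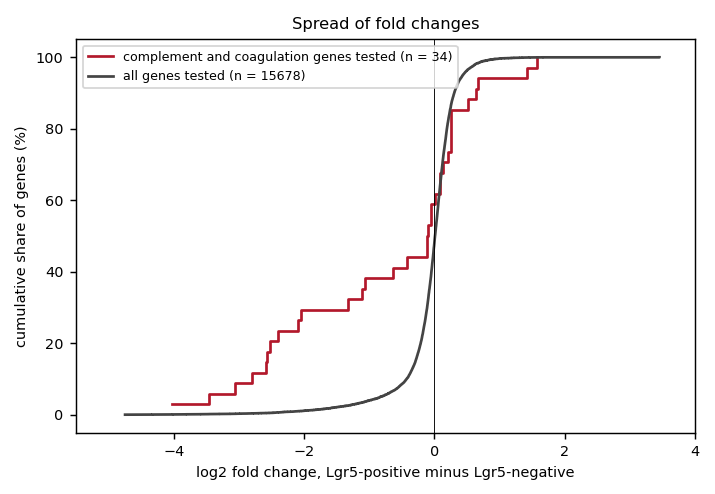
The cumulative share of genes (percent) is plotted against the log2 fold change for the 34 tested members and for all 15678 genes. The curve of the members leaves that of all genes at the negative end, where 38.2% of the members and 4% of all genes were at least 2-fold lower.

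In the initiating steps 7 of 8 members were tested; C2 fell with the group alone, and C3 and C1ra fell with the block. C2, the protease subunit of the classical C3-cleaving enzyme, had log2 ratios of 0.45, 1.07 and 0.35 in Lgr5-positive cells (replicates 1 to 3, the order kept below) and 2.53, 3.15 and 3.41 in Lgr5-negative cells. All Lgr5-positive arrays lay below all Lgr5-negative arrays, and C2 differed by -2.40 (log2, SE 0.30, 5.29-fold lower, limma adjusted p = 0.033; lost in 3 of 9 other settings that kept all arrays, with an adjusted p of 0.052 to 0.098). C3, the protein on which all complement pathways converge, was at -1.28, -0.62 and -0.63 in Lgr5-positive and at 0.42, 2.53 and 2.24 in Lgr5-negative cells. The groups again did not overlap, and replicate 1 of the Lgr5-negative cells stood well below the other two; the log2 fold change was -2.57 (SE 0.55; adjusted p = 0.134 with the group alone and 0.0034 with the block), and a second C3 probe gave -2.35. C1ra, the C1r protease, read -0.73, -0.10 and -0.55 in Lgr5-positive and 0.09, 0.95 and 0.78 in Lgr5-negative cells, a difference of -1.07 on the log2 scale (SE 0.29; 0.243 as the adjusted p and, with the block, 0.0069), with -0.92 on its other probe. Its neighbour C1rb, a close copy, was at -0.23 and C1s1 at -0.19, and neither passed in either fit.

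The subunits of C1q and C4b did not pass in either fit. C1qa, C1qb and C1qc, made largely by macrophages, had log2 fold changes of -0.11, 0.09 and -0.06 with an SE of 0.24 to 0.28, and C1qa and C1qc were well above background on only 1 Lgr5-positive and 2 Lgr5-negative arrays each. C4b was at 0.51 (SE 0.27, adjusted p = 0.823); mouse C4a is a near-identical copy, so which of them the probe reads is uncertain. Masp1, the lectin pathway protease, was well above background on 1 Lgr5-positive and no Lgr5-negative array and was not tested. Of 10 macrophage markers 7 were tested, 2 below 0 and 5 above it, with a median log2 fold change of 0.13. They averaged -1.03 to -0.26 on Lgr5-positive and -0.73 to -0.07 on Lgr5-negative arrays. Among them Aif1, at -1.74, fell in both fits and Mrc1 fell with the block. Mrc1 was well above background only on Lgr5-negative arrays and could only be found lower. Csf1r and Ptprc, at 0.13 and 0.29, passed in neither fit, and Lyz2 was well above background on none of the arrays. The part of macrophage RNA in the complement results was not tested.

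In the alternative pathway Cfb fell and Cfd did not pass. Cfb, the protease subunit of the amplifying enzyme, read 0.82, 2.49 and 1.47 in Lgr5-positive cells and 4.96, 4.99 and 5.22 in Lgr5-negative cells. The Lgr5-positive arrays varied more than the Lgr5-negative ones (SD 0.84 and 0.14, n = 3 each) and the groups did not overlap; the log2 fold change was -3.46 (SE 0.41, 11.0-fold lower, adjusted p = 0.029). That call was lost in 3 of the 9 other settings (adjusted p = 0.062 to 0.069), and the log2 fold change ran from -4.66 with the Cy5 channel alone to -2.78 with the scanner's ratios. Cfb and C2 are neighbouring genes on chromosome 17 with no coding gene between them, and C4b lies 5 coding genes away. Cfd, the adipsin protease that cleaves factor B and is abundant in fat cells, is shown because of its values, which were seen beforehand: 4.47, 4.52 and 1.82 in Lgr5-positive and 2.72, 1.88 and 1.47 in Lgr5-negative cells. The groups overlapped through Lgr5-positive replicate 3, and the log2 fold change of 1.58 (SE 0.75) had an adjusted p of 0.727, and of 0.056 with the block. The 4 tested markers of fat cells averaged 1.97 to 2.47 on Lgr5-positive and 1.90 to 2.61 on Lgr5-negative arrays. Fabp4 dominated this average, at 6.74, 7.68 and 6.68 in Lgr5-positive and 7.70, 7.81 and 8.15 in Lgr5-negative cells. Its log2 fold change was -0.86, and those of Cidec, Plin1 and Retn were 0.19, 0.02 and 0.16. None passed the limma test in either fit (1 at an unadjusted p under 0.05), and Adipoq was well above background on 1 array. Plin1 was well above background on 1 Lgr5-positive and 2 Lgr5-negative arrays. The part of fat cell RNA in the Cfd values was not tested. Cfp, properdin, was at -0.63 (adjusted p = 0.655).

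Of the terminal proteins and the receptors for the C3a and C5a fragments, none passed the limma test in either fit, and 0 had an unadjusted p under 0.05. C7 had the larger difference of the pore proteins, with -0.05, 0.30 and 0.05 in Lgr5-positive and 0.09, -0.22 and -0.32 in Lgr5-negative cells (log2 fold change 0.25, SE 0.19). A dimmer C7 probe, well above background on none of the arrays, had the other sign at -0.18. C6 was at -0.10. C3ar1, the C3a receptor, read -0.19, -0.17 and 0.17 in Lgr5-positive and -0.35, -0.07 and 0.37 in Lgr5-negative cells, so its groups overlapped fully. C5ar1 was well above background on none of the arrays and was not tested.

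The regulators held the largest difference of the tested members in the ratio fit, while with the Cy5 channel alone Cfb, at -4.66, was further from 0 than Cd55, at -3.50. Cd55, which breaks up the C3-cleaving enzymes on the cell surface, had log2 ratios of 0.42, 1.73 and 1.43 in Lgr5-positive cells and of 4.04, 5.36 and 6.27 in Lgr5-negative cells. Every Lgr5-negative array stood well above every Lgr5-positive one, and Cd55 fell by 4.04 on the log2 scale (SE 0.60, 16.4-fold lower), with an adjusted p of 0.049 with the group alone and 8.8e-04 with the block. The group-alone call was close to the threshold and was lost in 7 of 9 other settings that kept all arrays, while the call with the block was kept in each of them. Its neighbour Cd55b encodes a close relative: 1 of the 2 Cd55b probes was at -1.85 and the brighter one at 0.07, so which of the neighbours the Cd55 probe reads is uncertain.

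Clu, clusterin, which binds the pore complex in fluid and acts as a chaperone, read 1.53, 2.15 and 2.04 in Lgr5-positive and 4.32, 4.82 and 5.76 in Lgr5-negative cells. All Lgr5-positive arrays were lower, and Clu fell by 3.06 on the log2 scale (SE 0.38, 8.33-fold lower, adjusted p = 0.033). That call was lost in 1 of the 9 other settings that kept all arrays, median centring (limma adjusted p = 0.081). Cd59a, the regulator that blocks the pore and is attached to the membrane like Cd55, was at 0.92 ± 0.63 in Lgr5-positive and 0.79 ± 0.60 in Lgr5-negative cells (SD, n = 3 each), a difference of 0.13 (SE 0.41; SE 0.12 with the block), with overlapping groups. Cfi, which cleaves C3b, was well above background on 1 Lgr5-negative array alone, and Cd46, which in the mouse is expressed mainly in testis, on none.

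**Figure D3:**
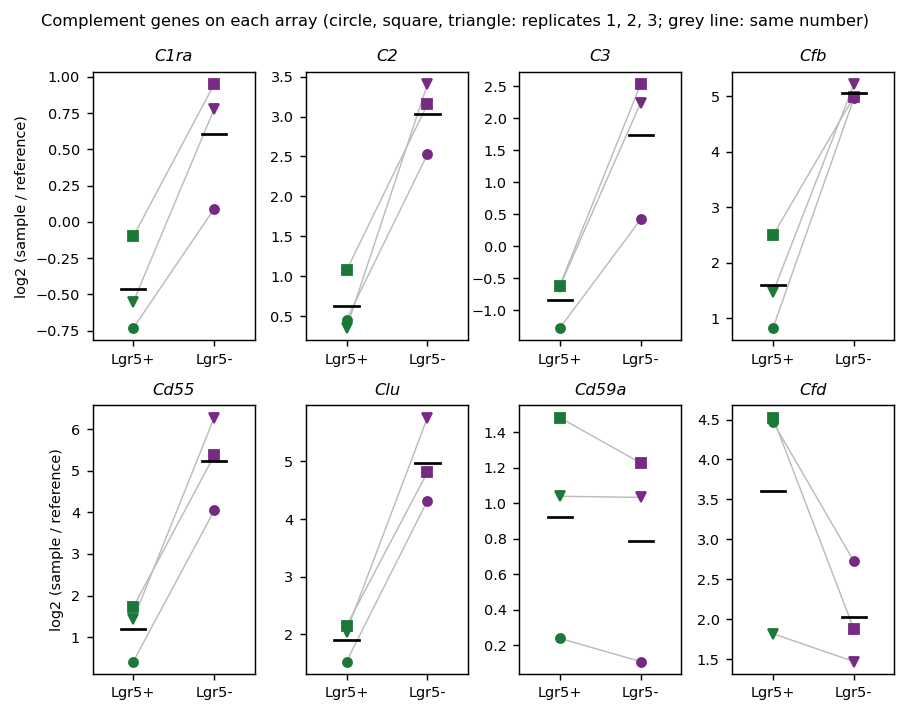
Log2 ratios of sample to reference are plotted for each array, Lgr5-positive left and Lgr5-negative right, with grey lines joining arrays of the same replicate number and bars at the group means. C1ra, C2, C3, Cfb, Cd55 and Clu are lower on every Lgr5-positive array, whereas the Cd59a groups overlap and Cfd, at 1.58, is carried by Lgr5-positive replicates 1 and 2.

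The chains of fibrinogen, the clotting protein, moved apart although their genes stand side by side on chromosome 3. Fgg, the gamma chain, read 6.07, 6.43 and 6.42 in Lgr5-positive and 4.62, 5.38 and 4.62 in Lgr5-negative cells, and Fgb, the beta chain, 1.40, 2.45 and 0.67 in Lgr5-positive and 3.55, 4.26 and 2.99 in Lgr5-negative cells. Neither pair of groups overlapped, and the directions were opposite: Fgg was at 1.43 (SE 0.26; adjusted p = 0.084 with the group alone and 0.0046 with the block, where it rose) and Fgb at -2.09 (SE 0.51; adjusted p = 0.188 and 0.0010, where it fell). Within pairs Fgg was higher by 1.45, 1.05 and 1.79 and Fgb was at -2.15, -1.81 and -2.32. Fga, the alpha chain, read 1.94, 1.15 and 0.58 in Lgr5-positive and 1.69, 0.94 and 0.28 in Lgr5-negative cells. Its difference of 0.25 (SE 0.46), with 0.20 on its other probe, lay between those of Fgg and Fgb. The Fga arrays were ordered by replicate number far more than by group. Of 5 hepatocyte markers, Alb, Apoa1 and Ttr were well above background on none of the arrays. Neither of the 2 tested passed (limma, 0 at an unadjusted p under 0.05).

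**Figure D4:**
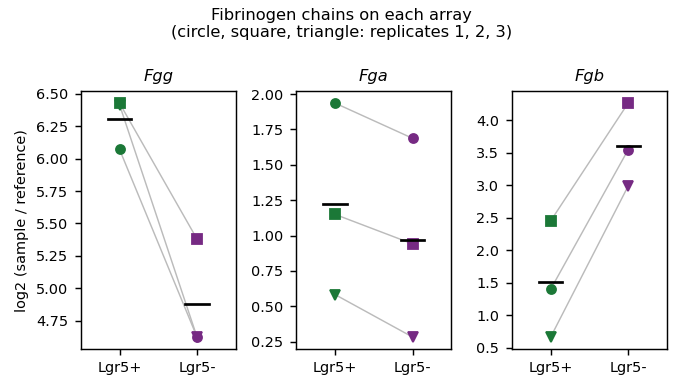
Log2 ratios of sample to reference are plotted for the fibrinogen chains on each array, Lgr5-positive left and Lgr5-negative right, with lines joining arrays of the same replicate number and bars at the group means. The lines fall towards Lgr5-negative for Fgg (difference 1.43), stay nearly level for Fga (0.25) and climb for Fgb (-2.09).

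The 250 bases before the RefSeq start of each fibrinogen gene (build GRCm38.p6) are shown because these neighbours differed in direction, and those of C3 because it fell most among the initiating members; capitals mark matches to the STAT motif TTCNNNGAA or the C/EBP motif TTNNGCAA, read on both strands. The windows lie at chr3:83007474-83007723 on the plus strand for Fgg, chr3:83025903-83026152 on the plus strand for Fga, chr3:83049864-83050113 on the minus strand for Fgb and chr17:57228137-57228386 on the minus strand for C3.
Fgg: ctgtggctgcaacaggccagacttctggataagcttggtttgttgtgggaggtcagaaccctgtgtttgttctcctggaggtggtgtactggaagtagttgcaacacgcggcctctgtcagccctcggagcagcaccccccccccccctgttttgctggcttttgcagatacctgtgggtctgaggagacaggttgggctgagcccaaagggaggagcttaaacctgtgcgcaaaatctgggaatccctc
Fga: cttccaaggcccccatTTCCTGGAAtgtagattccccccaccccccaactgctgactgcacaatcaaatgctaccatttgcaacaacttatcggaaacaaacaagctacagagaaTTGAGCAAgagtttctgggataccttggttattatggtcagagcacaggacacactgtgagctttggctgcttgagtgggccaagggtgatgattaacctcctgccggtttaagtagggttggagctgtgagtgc
Fgb: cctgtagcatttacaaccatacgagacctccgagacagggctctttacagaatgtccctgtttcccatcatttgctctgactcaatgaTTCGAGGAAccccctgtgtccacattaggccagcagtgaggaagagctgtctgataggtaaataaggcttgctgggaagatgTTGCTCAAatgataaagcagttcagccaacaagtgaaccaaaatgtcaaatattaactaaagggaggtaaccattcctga
C3: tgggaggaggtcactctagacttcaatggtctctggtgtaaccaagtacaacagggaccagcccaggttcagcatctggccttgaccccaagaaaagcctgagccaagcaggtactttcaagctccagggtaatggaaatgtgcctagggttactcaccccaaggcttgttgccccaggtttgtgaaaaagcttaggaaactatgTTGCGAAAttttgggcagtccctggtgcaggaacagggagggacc
Fga and Fgb each hold 1 match to the STAT motif, starting at -234 and -162 from the start site, and 1 to the C/EBP motif, at -135 and -80. C3 holds 1 C/EBP match, at -45, and Fgg none of either. Over 32851 promoter windows of the same length 7.02% hold the STAT motif and 9.56% the C/EBP motif. TATAAA, searched on the gene's own strand, and the NF-kappaB consensus, searched on both strands, occur in 7.59% and 3.9% of the windows and in none of these 4. Among 28 members with a RefSeq promoter entry, 4 had a STAT match, 4 a C/EBP match, 1 (C3ar1) a TATAAA and 1 (C1qc) an NF-kappaB match. The motifs do not overlap in the sequences shown.

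Among the clotting factors 6 of 8 were tested, and Vwf, F8 and F3 fell with the block. Vwf, which tethers platelets and carries factor VIII, read 1.92, 3.47 and 2.10 in Lgr5-positive and 4.20, 4.81 and 4.60 in Lgr5-negative cells, without overlap (-2.04, SE 0.43; adjusted p = 0.123 and, with the block, 0.0040). F8, the cofactor of factor IX, read -0.28, 0.44 and -0.01 in Lgr5-positive and 1.57, 3.09 and 3.87 in Lgr5-negative cells. None of its Lgr5-positive spots was well above background, so its difference of -2.79 (adjusted p = 0.113 and, with the block, 0.0052) is not an exact size, and it ran from -3.998 to -2.51 over the other settings that kept all arrays. A dimmer F8 probe was at -0.24. F3, tissue factor, which starts the cascade, was at 0.05, 1.05 and 1.47 in Lgr5-positive and 1.39, 2.30 and 2.21 in Lgr5-negative cells. Its groups overlapped, yet every pair was lower (-1.34, -1.25 and -0.73), and F3 fell with the block (log2 fold change -1.11, SE 0.42 and adjusted p = 0.501 with the group alone; 0.0086 with the block; second probe -0.98).

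F7, F10 and F5 did not pass in either fit and were at 0.02, 0.21 and -0.11, with an SE of 0.18 to 0.53. F2, prothrombin, was well above background on 2 Lgr5-negative arrays and no Lgr5-positive array and was not tested. F13a1, the fibrin-linking factor XIII subunit, was well above background on none of the arrays. F2r, the main thrombin receptor, read -1.73, -1.24 and -1.37 in Lgr5-positive and -1.09, 0.07 and 0.64 in Lgr5-negative cells. These groups did not overlap, by a narrow margin at Lgr5-negative replicate 1, and F2r fell with the block (-1.32, SE 0.43, limma adjusted p = 0.380 and, with the block, 0.024). That call was lost in 2 of 9 other settings that kept all arrays, 1 being the scanner's ratios (0.065), and without pair 2 (0.148). F2rl1, a related receptor cleaved by trypsin-like proteases, was well above background on 1 array.

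Brakes on clotting split by gene. Thbd, thrombomodulin, which turns thrombin towards protein C, read -0.96, 1.22 and 0.21 in Lgr5-positive and 1.53, 3.24 and 3.28 in Lgr5-negative cells, and Tfpi, the inhibitor of tissue factor, -1.51, -1.18 and -1.36 in Lgr5-positive and 0.16, 1.38 and 2.17 in Lgr5-negative cells. Both were lower on every Lgr5-positive array and fell with the block, Thbd by 2.53 (SE 0.67; adjusted p = 0.233 and, with the block, 0.0016) and Tfpi by 2.59 (SE 0.48; adjusted p = 0.087 and, with the block, 0.0052). The other Tfpi probes differed: 1 gave -0.999, and the other gave -1.73 with overlapping groups because Lgr5-positive replicate 3 read 2.28 there while replicates 1 and 2 read -1.75 and -1.24. Pros1, protein S, went the other way at 2.17, 3.14 and 2.78 in Lgr5-positive and 1.23, 2.58 and 2.36 in Lgr5-negative cells. Its groups overlapped but all pairs were higher, and it rose with the block (0.64, SE 0.41; adjusted p = 0.977 with the group alone and 0.043 with the block), a call lost in 3 of 9 other settings. Proc, protein C, was at -0.42 (adjusted p = 0.933), and Tfpi2 was well above background on 1 array.

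**Figure D5:**
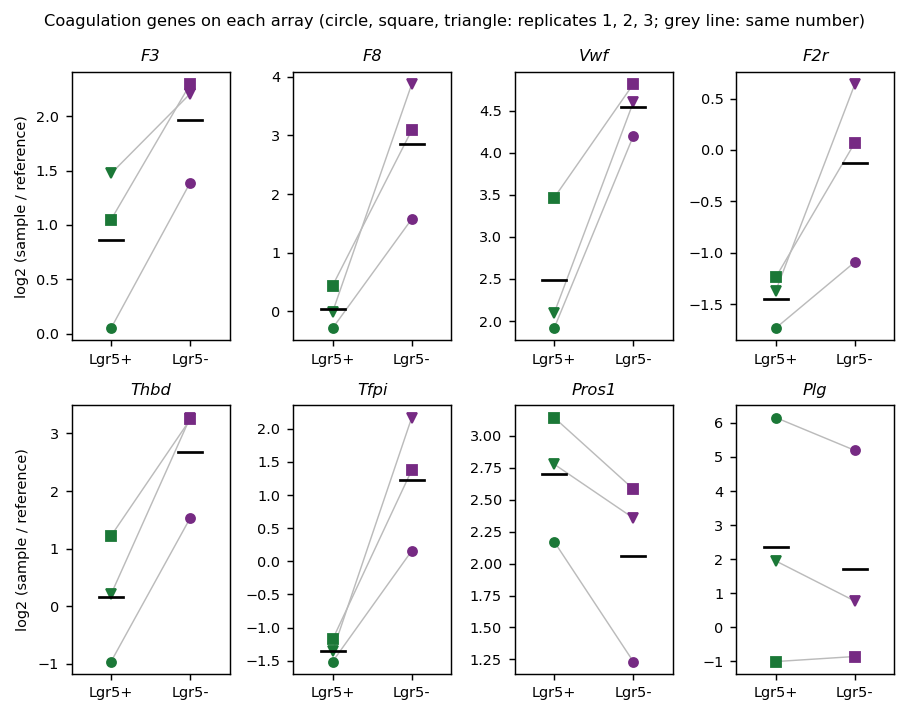
Log2 ratios of sample to reference are plotted for each array, Lgr5-positive left and Lgr5-negative right, with grey lines joining arrays of the same replicate number and bars at the group means. F3, F8, Vwf, F2r, Thbd and Tfpi are lower in each pair and Pros1 is higher, while Plg runs from -1.01 to 6.16 within the Lgr5-positive group alone.

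The genes that dissolve fibrin had small positive differences, and none of the 4 passed the limma test in either fit (0 at an unadjusted p under 0.05). Plat and Plau, the tissue-type and urokinase plasminogen activators, were at 0.26 (SE 0.34) and 0.09 (SE 0.17), and Plaur, the urokinase receptor, at 0.25 (SE 0.39). Plg, plasminogen, had the most uneven values of any member: 6.16, -1.01 and 1.95 in Lgr5-positive and 5.19, -0.86 and 0.77 in Lgr5-negative cells. Arrays with the same number lay close together and the numbers far apart, so the difference of 0.66 had an SE of 2.11 with the group alone and of 0.25 with the block (adjusted p = 0.188 there).

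Vwf, Thbd, Tfpi and F8, which blood vessel endothelium is known to express, were among the members that fell, though F8 could only be found lower. Plat and Pros1, which endothelium also expresses, were at 0.26 and 0.64, and Pros1 rose with the block. Most endothelial markers fell. The 11 endothelial markers averaged 1.23 to 2.27 on Lgr5-positive and 3.10 to 3.73 on Lgr5-negative arrays, with a median log2 fold change of -2.15; 10 were below 0, 3 fell with the group alone and 8 with the block. In pairs 1 to 3 the median of these markers was -1.64, -1.40 and -2.97, and that of all tested members was -0.16, -0.14 and -0.24. All 11 were well above background on at least 2 Lgr5-negative arrays, and Tie1 on no Lgr5-positive array, so that Tie1, which is in both counts of calls, could only be found lower; Kdr disagreed between its probes, at 0.18 and -2.66. In sorted bulk RNA fewer cells of a type and less RNA per cell cannot be told apart. The part of endothelial RNA in these results was not tested. The Lin- sort is a depletion by lineage markers, which commonly include endothelial and blood cell ones. How far it removed such cells here was not tested. Fibroblast markers had a median of -0.34 (9 of 10 tested, averaging -0.77 to -0.51 on Lgr5-positive and -0.51 to -0.09 on Lgr5-negative arrays; 4 lower and 1 higher with the block). Platelet markers had a median of -0.41 (4 of 5 tested, averaging -0.81 to -0.38 on Lgr5-positive and -0.30 to -0.03 on Lgr5-negative arrays), with Itga2b lower with the block; luminal markers were at 0.03 (7 tested; Esr1 lower with the block), and basal markers at 0.16, with no basal marker past either limma fit (0 at an unadjusted p under 0.05).

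The rest of the cascades was read from 46 further genes, of which 29 were tested. None passed limma with the group alone (9 at an unadjusted p under 0.05), and with the block 6 fell and 0 rose; their median was -0.05. Among those that fell were Cd93, an endothelial and myeloid surface protein once named a C1q receptor, at -2.89, Procr, the protein C receptor, at -2.43, Vtn, vitronectin, which binds the pore complex, at -1.42, Colec12, a scavenger receptor, at -1.16, and Cr2, the complement receptor of B cells, at -1.02 (a second Cr2 probe gave -0.27). The adjusted p of these named genes with the block lay between 0.0025 and 0.030.

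The calls with the group alone rested on few arrays. Without Lgr5-positive replicate 1 or 3, or Lgr5-negative replicate 2 or 3, no member passed, where 0, 0, 5 and 21 of all genes did. The log2 fold changes of Cd55, Cfb, Clu and C2 kept their sign and stayed between -4.63 and -2.22 whichever array was left out. Without Lgr5-negative replicate 1, 8 members passed, where 371 of all genes did. With the block 13 of the 15 members passed in each other setting that kept all arrays and tested them, the exceptions being F2r and Pros1. F8 was tested in 8 of these 9 settings, since it was well above background on no Lgr5-positive array. Without replicate 2, the fit with the block passed 9 members, where 326 of the 15678 genes tested passed.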

How the data were processed

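RNA of sorted cells was hybridised in Cy5 against a reference in Cy3, with no dye swap, on 1 slide read in 1 scan. The authors' deposited scanner files hold the intensity of spots and backgrounds as pixel medians, processed intensity and a log10 ratio; the scanner software was Feature Extraction (Agilent), version 11.0.1.1 per the file headers and 11.0 in the submitters' processing notes. The deposited table of log2 ratios is centred on each probe's median over the arrays; on each array 81.6% to 83.2% of values matched the scanner's centred ratio to 0.001 (r = 0.92 to 0.95, same direction), its column medians are -0.0016, 0.03 and 0.02 (Lgr5-positive replicates 1 to 3) and 0.0064, -0.02 and -0.05 (Lgr5-negative), and the source of the other mismatches is unknown.

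Median signals were corrected with normexp (offset 50) and loess in limma 3.58.1 under R 4.3.3, with control and outlier-flagged spots at weight 0 and then left out. Probes were named by RefSeq transcript (GRCm38.p6 names). Genes with Cy5 well above background on at least 3 of 6 arrays were tested on their brightest probe, after 8 with a flagged spot were dropped, with lmFit and eBayes (two-sided), and passed where p, adjusted over all genes by Benjamini-Hochberg, was under 0.05. The code of both fits was run on simulated data with independent noise and pair effects taken from these arrays. Such data could not test whether the pairing holds. Same-numbered arrays deviated together (correlations 0.81, 0.819 and 0.675 across genes), and the pairing was taken from these correlations. The labels do not say whether arrays with the same number came from the same animals, so calls with the block rest on this pairing. The array number limits precision.

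Members and lists were chosen with earlier results of these data known. Values on every array are given for members that passed in either fit or had the largest change of their role; Cfd, Fga and Cd59a were added after their values were seen. Marker lists (endothelial, macrophage, fibroblast, fat cell, platelet, hepatocyte, basal, luminal) are described by counts and medians. Alternatives changed the background, scaling, channel, filter, probe rule, weights and arrays. Of the other pathway genes that passed, 1 is not reported here.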

Additional observations from a re-analysis of the deposited data

How the results depend on the processing

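The count of members changed, 4 with the group alone, was 1 with the scanner's own ratios, 1 with the deposited table, 0 under median centring, 7 with array weights and 15 with the replicate block; leaving out an array gave 0 to 8, and leaving out pair 1, 2 or 3 in the fit with the replicate block 14, 9 and 16. Over all genes 96 became 9 under median centring, 44 among probes above background on all 6 arrays, 312 with array weights and 1212 with the replicate block (0 to 371 without an array or pair, 1397, 326 and 854 without pair 1, 2 or 3 with the replicate block). Of the other pathway genes, 0 with the group alone, 2 passed with array weights and 6 with the replicate block (0 to 4 without an array or pair, 7, 4 and 7 without pair 1, 2 or 3 with the replicate block). The members' median of -0.11 was -0.25 with the scanner's ratios, -0.27 with the deposited table, -0.22 under median centring and -0.42 above background on all 6 arrays, and ran from -0.39 to -0.089 without an array or pair. Median centring moved the median of all genes to -0.29, so the members' median then lay above it, and in the blocked fit it called 36.9% of all genes, 97.8% of them lower against 72.6%. The members called with the block were 15, with 13 to 17 over the settings that kept all arrays, choices added after seeing the data, and 9 without pair 2, where C1ra, F3, F8, F2r, Pros1 and Tfpi were lost. None of the 15 members that passed in a fit changed sign in the settings run for it; the other pathway and marker genes were not followed one by one. The cause of these shifts was not tested. A slide or scan block was not run because all arrays shared 1 slide and 1 scan. Signal over background limits F8, C1qa, C1qc and the 8 members not tested.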
